A study of Mus musculus with 6 samples.

Results

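The genes described here are 10 members of endogenous protease inhibitor families, chosen by name with earlier results of these data known. They are the serpins Serpine2, Serpinf1 and Serpinb6a, the cystatins Cst3, Cst7 and Cstb, the tissue inhibitors of metalloproteinases (TIMPs) Timp1, Timp2 and Timp3, and the WAP-domain inhibitor Slpi. All are called inhibitors here by family, although Serpinf1 has no known protease inhibition. All 10 were listed among the 35237 genes of the RNA-Seq table, and 6 of them passed the expression minimum, as did 6364 genes in all. BMDM were marrow monocytes sorted as CD11b+ CD45 high CD115+ Ly6G- cells, and BSM were brainstem microglia sorted as CD11b+ CD45 low CD115 low Ly6G- cells. Both came from C57BL/6 mice at 6 weeks of age for which the labels name no genetic change or experimental agent, without culture, and each of the 3 libraries per cell type was a pool of 10 mice. By the labels replicate 1 was male and replicates 2 and 3 were female in both cell types. The sample listing of the study has the same sexes, although its text describes male mice. The comparison asks which inhibitor transcripts separate a circulating-lineage monocyte from a resident microglial cell.

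Serpins are suicide substrates that trap mostly serine proteases, and some family members have lost inhibition and act as signals. Cystatins block the papain-like cysteine proteases of the lysosome, TIMPs block matrix metalloproteinases and related ADAM proteases, and Slpi blocks the serine proteases of neutrophil granules. Microglia are rich in lysosomal cathepsins, whereas marrow myeloid cells at early stages make granule serine proteases.

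Expression was given as FPKM, that is, fragments scaled by transcript length and by the number of mapped reads, so that levels can be compared between genes per length. A second table, ALEXA-Seq, gave values from the same libraries in a unit that the sources used here do not name, and it was used only to compare the cell types within a gene. A gene was called when its Benjamini-Hochberg adjusted p in limma was under 0.05, and log2 fold changes are BMDM minus BSM on the log2(FPKM + 1) scale, on which low genes change less than their raw ratio. FPKM summed to between 163199 and 194184 in BMDM and between 68288 and 75021 in BSM, and the median log2 fold change of the tested genes was 0.81. Quantile normalization moved that median to 0.02, and giving every library an equal FPKM sum moved it to -0.23. The monocyte marker list summed to between 1757 and 3317 FPKM in BMDM and at most 7.35 in BSM, and the microglia list to between 1204 and 1387 FPKM in BSM and at most 21.7 in BMDM. BSM replicate 1 listed 472 of the tested genes at 0, against 51 to 115 in the other libraries. The study's RNA assessment also sets this library apart, with the least RNA and the lowest integrity score. Serpine2, Serpinf1, Cst3, Timp2 and Slpi were called without it as well. As these are bulk samples, fewer cells with a transcript and less of it per cell cannot be told apart.

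Upstream sequence is shown for the most abundant inhibitor, Cst3, and for the called members with the largest log2 fold change in each direction, Serpine2 toward BSM and Slpi toward BMDM. Each line is the 250 bases before the RefSeq start site, read 5′ to 3′ on the gene's strand, from the RefSeq promoter table of GRCm38.p6, a build later than the mm9 of the expression tables. Capitals mark matches to GAGGAA, the core of the PU.1 site, or TTNNGCAA, a C/EBP site, searched on both strands.
Serpine2, chr1:79858666-79858915, minus strand: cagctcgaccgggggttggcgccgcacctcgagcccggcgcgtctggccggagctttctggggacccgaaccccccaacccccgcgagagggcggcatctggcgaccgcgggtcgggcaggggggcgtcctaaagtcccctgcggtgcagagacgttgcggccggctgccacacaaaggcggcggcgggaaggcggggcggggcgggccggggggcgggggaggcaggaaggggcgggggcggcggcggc
Cst3, chr2:148875513-148875762, minus strand: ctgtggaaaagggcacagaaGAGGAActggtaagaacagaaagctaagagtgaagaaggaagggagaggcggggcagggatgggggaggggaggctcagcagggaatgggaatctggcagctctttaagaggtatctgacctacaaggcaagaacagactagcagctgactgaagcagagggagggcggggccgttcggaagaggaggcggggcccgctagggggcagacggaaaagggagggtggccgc
Slpi, chr2:164356508-164356757, minus strand: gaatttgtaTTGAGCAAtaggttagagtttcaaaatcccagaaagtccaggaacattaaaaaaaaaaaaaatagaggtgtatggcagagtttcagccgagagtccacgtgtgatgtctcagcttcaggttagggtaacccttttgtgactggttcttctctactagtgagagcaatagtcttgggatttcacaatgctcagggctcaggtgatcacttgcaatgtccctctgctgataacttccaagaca

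PU.1 and C/EBP factors are lineage regulators of myeloid cells. GAGGAA was found in Cst3, 230 to 225 bases before the start, and TTNNGCAA in Slpi, as TTGAGCAA 241 to 234 bases before the start. Of all 32851 promoters in the table, 23.3% held GAGGAA and 9.56% held TTNNGCAA in the same window. Serpine2 held neither of these, nor TATAAA or CCAAT, which 12.4% and 33.8% of promoters held. Its window was 78.8% G and C, against 59.6% in Cst3 and 42% in Slpi and a median of 52.4% over all promoters. CCAAT occurred 3 times in the Serpinf1 window and 1 time each in the Timp2 window, the Timp1 window and 1 of the Serpinb6a windows, and Cstb had no entry. These matches are a description of letters, as binding was not measured.

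Of the 6 members tested, 4 were called higher in BSM (Serpine2, Serpinf1, Cst3 and Timp2), 1 was called higher in BMDM (Slpi) and 1 was not called (Cst7). Over all tested genes, 54.5% were called, 45.3% higher in BMDM and 9.22% higher in BSM. The median log2 fold change of the 6 members was -2.52, beside 0.81 for all tested genes. As the members were chosen with earlier results of these data known, this difference only describes them. Quantile normalization left the counts at 4 and 1, where 19.3% of all tested genes were called higher in BSM and 21.7% higher in BMDM, and so did scaling to equal sums, where these were 24.9% and 15.2%. In the ALEXA-Seq values 7 members were tested, 4 called higher in BSM and 3 higher in BMDM (Slpi, Cst7 and Cstb), where 10.9% and 37.1% of entries were called in these directions. Once those values were quantile normalized, 4 members were called higher in BSM and 2 higher in BMDM, beside 21.2% and 22.6% of entries. In all 4 members called higher in BSM and in Slpi the groups did not overlap, and among the tested genes 66.8% had no overlap, 55.2% with BMDM above and 11.6% with BSM above. Serpine2, Serpinf1 and Timp2 reached the FPKM minimum in BSM only, and Slpi and Cst7 in BMDM only. Their entry into the test thus already depended on the group where they were high, whereas Cst3 reached the minimum in both groups. The 4 members that did not pass the FPKM minimum were Cstb, Serpinb6a, Timp1 and Timp3, and their values are given with their families.

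**Figure D1:**
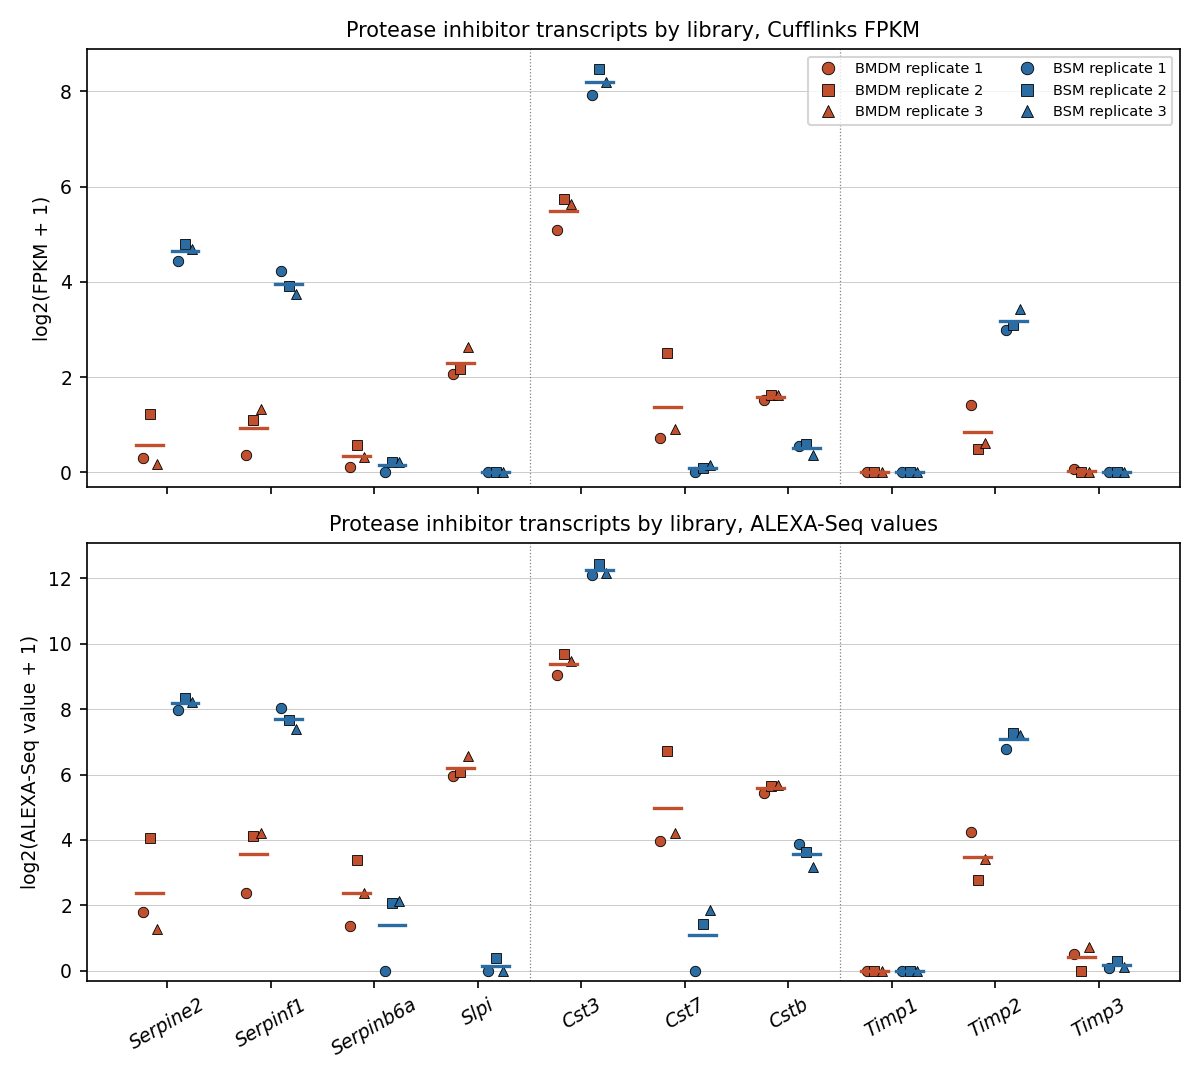
Expression of the 10 inhibitor genes in each library, as log2(FPKM + 1) in the upper panel and log2(ALEXA-Seq value + 1) in the lower panel, with BMDM in red, BSM in blue, a symbol for each replicate and a line at the group mean. In both panels the BSM libraries lie above the BMDM libraries for Serpine2, Serpinf1, Cst3 and Timp2 and below them for Slpi, Cst7 and Cstb, whereas Timp1 is at 0 throughout.

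Serpine2, also known as protease nexin-1, inhibits thrombin, urokinase and plasmin at the cell surface and is known from glia. It lies at chr1:79790772-79855271 in mm9. Its FPKM was 0.228, 1.34 and 0.131 in BMDM replicates 1 to 3 and 20.6, 26.8 and 25.0 in BSM replicates 1 to 3. Every BSM library lay above every BMDM library, and BMDM replicate 2 was the highest of its group. BMDM had a mean of 0.568 ± 0.674 (SD, n = 3) and BSM one of 24.1 ± 3.17 (SD, n = 3), 42.5 times higher. This gave a log2 fold change of -4.07 ± 0.32 (standard error, or SE, adjusted p = 4.95e-05), and leaving out single libraries moved it between -4.41 and -3.88. By ALEXA-Seq it was at 2.46, 15.5 and 1.45 in BMDM and 251, 324 and 295 in BSM. That table placed BMDM replicate 2 highest in its group as well, and its log2 fold change was -5.80 ± 0.71 (SE, adjusted p = 0.000789).

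Serpine2 is also made by astrocytes, and the astrocyte marker list was read beside it. That list of 8 genes summed to between 5.42 and 9.54 FPKM in BSM and to at most 0.397 in BMDM. Gfap was listed at 0 in all 6 libraries, and Slc1a3, a glutamate transporter, made up nearly the whole BSM sum with 9.51, 5.18 and 6.71 FPKM in replicates 1 to 3. Slc1a2 and Gja1 were at 0.0217 FPKM or less in every library. Aqp4 was at 0, 0.118 and 0.144 FPKM and S100b at 0, 0.103 and 0.0491 FPKM in BSM replicates 1 to 3. Aldh1l1 was at most 0.0123 FPKM in BSM, and all 3 were listed at 0 in BMDM. Aldoc was at most 0.0202 FPKM in BSM and at least 0.240 in BMDM. Serpine2, Aqp4 and S100b were lowest in BSM replicate 1, where Slc1a3 was highest. The part of these markers in the Serpine2, Cst3 and Timp2 results was not tested.

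Serpinf1, or pigment epithelium-derived factor, is a secreted serpin without known protease inhibition that acts on vessels and neurons. It lies at chr11:75223531-75236203. Its FPKM was 0.293, 1.14 and 1.51 in BMDM and 17.8, 14.0 and 12.4 in BSM. The groups did not overlap, and the lowest BSM library was replicate 3. The means were 0.982 ± 0.624 (SD, n = 3) and 14.7 ± 2.81 (SD, n = 3), a ratio of 15.0, and the log2 fold change was -3.03 (SE 0.31, adjusted p = 0.000179). The ALEXA-Seq values were 4.23, 16.5 and 17.7 in BMDM and 259, 204 and 167 in BSM, in the same order of libraries within each group as the FPKM. This table gave a log2 fold change of -4.12 (SE 0.54, adjusted p = 0.00107).

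Serpinb6a, an intracellular serpin of the clade B that inhibits cathepsin G, was low in both cell types. Its FPKM was 0.0865, 0.499 and 0.248 in BMDM and 0, 0.168 and 0.162 in BSM, so that the groups overlapped. With no FPKM minimum its log2 fold change was 0.19 (SE 0.13, adjusted p = 0.405). By ALEXA-Seq it was at 1.56, 9.55 and 4.15 in BMDM and 0, 3.18 and 3.40 in BSM, which overlapped as well. Its exons overlap those of Ripk1 and Nqo2 on the opposite strand, which lay at up to 9.26 and 4.64 FPKM, and use of strand is not given in the sources used here, so reads of these genes cannot be told apart in the overlap.

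Cst3 encodes cystatin C, the main secreted inhibitor of cathepsins B, L and S, and was the most abundant member in every library. It lies at chr2:148697458-148701428. Its FPKM was 33.2, 52.4 and 49.0 in BMDM and 241, 351 and 294 in BSM. The lowest BSM library was above the highest BMDM library, and replicate 1 was the lowest of each group. The means were 44.9 ± 10.3 (SD, n = 3) and 295 ± 55.4 (SD, n = 3), a ratio of 6.58. In limma this was a log2 fold change of -2.70 (SE 0.26, adjusted p = 0.000133), and single libraries left out moved it between -2.84 and -2.50. Among the 35237 genes it ranked 23, 16 and 16 in BSM replicates 1 to 3 and 501, 349 and 368 in BMDM replicates 1 to 3. The ALEXA-Seq values were 522, 815 and 706 in BMDM and 4405, 5578 and 4561 in BSM, and the log2 fold change there was -2.85 (SE 0.23, adjusted p = 0.000147).

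Cst7 encodes cystatin F, a cystatin of the endosomal and lysosomal compartment of immune cells that restrains cathepsin C. It lies at chr2:150396151-150404680. Its FPKM was 0.653, 4.69 and 0.882 in BMDM and 0, 0.0659 and 0.113 in BSM. The groups did not overlap, but BMDM replicate 2 stood well above the other 2 BMDM libraries. The log2 fold change of 1.30 (SE 0.50) had an adjusted p of 0.0591 and was not called. Without BMDM replicate 2 it was 0.74 with an adjusted p of 0.0131, and without BMDM replicate 1 it was 1.63 with an adjusted p of 0.0397. It was called in these 2 of the 6 fits with a library left out. Only BMDM replicate 2 reached the minimum of 3 FPKM, and the set of tested genes was kept from all 6 libraries. Without that library Cst7 would not have entered the test, so that fit cannot stand as a call of its own. By ALEXA-Seq Cst7 was at 14.7, 103 and 17.6 in BMDM and 0, 1.71 and 2.65 in BSM, again highest in BMDM replicate 2. There it was called, with a log2 fold change of 3.86 (SE 0.91, adjusted p = 0.0131).

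BMDM replicate 2 was also the highest library for granulocyte, erythroid and lymphocyte markers. In the study's sample listing this library also had the fewest sorted cells and the lowest share of mapped reads. The granulocyte list of 12 genes summed to 79.7, 558 and 125 FPKM in BMDM replicates 1 to 3 and to at most 0.0940 in BSM, and all 12 genes were detected in BMDM. Ly6g, the marker by which granulocytes were gated out, was at 0.293 FPKM in BMDM replicate 2 and listed at 0 in the other 5 libraries. The erythroid list summed to 6.84, 39.2 and 7.22 FPKM and the lymphocyte list to 0.654, 8.86 and 1.93 FPKM in BMDM replicates 1 to 3. The part of these markers, of cell number and of mapping in the Cst7 and Serpine2 values of BMDM replicate 2 was not tested.

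Cstb encodes cystatin B, or stefin B, a cytosolic inhibitor of cathepsins. It lies at chr10:77888415-77890364. Its FPKM was 1.85, 2.07 and 2.10 in BMDM and 0.467, 0.514 and 0.284 in BSM. The spread within each group was small and the groups did not overlap, but no library reached the minimum of 3 FPKM. The means were 2.01 ± 0.138 (SD, n = 3) and 0.422 ± 0.121 (SD, n = 3), which is 4.76 times higher in BMDM. With an FPKM minimum of 1, which 9637 genes passed, its log2 fold change was 1.08 (SE 0.21, adjusted p = 0.00441), and 37.2% of those genes were called higher in BMDM, the other direction holding 7.66%. With no minimum, where 14.9% of genes were called higher in BMDM and 3.36% higher in BSM, its adjusted p was 0.0128. With no minimum and quantile normalization, a setting chosen after the values were seen, it was 0.60 with an adjusted p of 0.179. The ALEXA-Seq values were 42.5, 49.2 and 50.4 in BMDM and 13.7, 11.5 and 7.94 in BSM, without overlap. Here it had a log2 fold change of 2.03 (SE 0.36, adjusted p = 0.00431), which became 1.25 with an adjusted p of 0.0557 after quantile normalization.

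Within the cystatins the directions therefore differed by gene, with Cst3 higher in BSM in every fit and Cst7 and Cstb at higher values in BMDM. The call of Cst7 depended on the table, on single BMDM libraries and on the settings of the fit. With no FPKM library left out, limma called it with a pseudocount of 0.1 (log2 fold change 3.32, adjusted p = 0.0143). It was also called there with an FPKM minimum of 1, no trend or library quality weights. It was not called there with no minimum, the replicate block, quantile normalization, equal sums or upper quartile scaling. The call of Cstb depended on the minimum and the scaling. Of the 25 other genes on the cystatin list, 19 were in the FPKM table and 0 passed the minimum of 3 FPKM, so none entered the limma test.

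**Figure D2:**
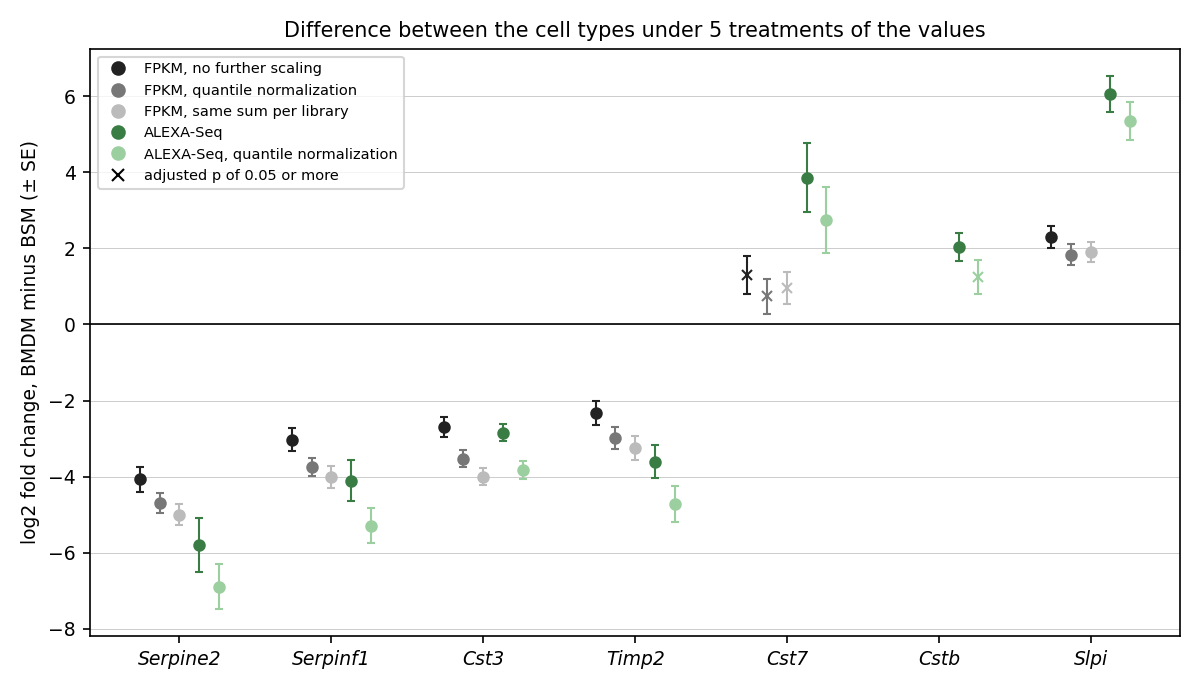
Log2 fold change (BMDM minus BSM, with its standard error) of the 7 members tested in at least 1 of 5 treatments of the values, FPKM in black and grey and ALEXA-Seq in green; a cross marks an adjusted p of 0.05 or more. Serpine2, Serpinf1, Cst3 and Timp2 stay below 0 and Slpi stays above 0 with a call in all 5, whereas Cst7 is called only in the ALEXA-Seq values and Cstb only in the ALEXA-Seq values without quantile normalization.

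Timp2 inhibits matrix metalloproteinases and also takes part in the activation of pro-MMP2. It lies at chr11:118162383-118217054. Its FPKM was 1.67, 0.404 and 0.530 in BMDM and 6.92, 7.57 and 9.79 in BSM. The groups did not overlap, and BMDM replicate 1 was the highest of its group. The means were 0.867 ± 0.697 (SD, n = 3) and 8.09 ± 1.50 (SD, n = 3), a ratio of 9.33, with a log2 fold change of -2.33 (SE 0.31, adjusted p = 0.000676). By ALEXA-Seq it was at 17.8, 5.79 and 9.66 in BMDM and 110, 152 and 145 in BSM, and BMDM replicate 1 was again the highest of its group. Here the log2 fold change was -3.61 (SE 0.44, adjusted p = 0.00077).

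Timp1, a TIMP that is induced in inflammation, was listed at 0 in all 6 libraries in both tables, and so was Timp4, the remaining member of the family. A listed 0 can be a failed estimate in these tables, so it gives no upper limit. Timp1 lies inside Syn1, a neuronal synapsin gene on the opposite strand, which was listed at 2.10, 2.83 and 2.12 FPKM in BMDM and at 0, 2.16 and 1.40 FPKM in BSM, although no exon of Timp1 overlaps one of Syn1. Timp3, the TIMP that binds to the extracellular matrix, was at 0.0447 FPKM or less in every library, with overlap between the groups. It lies within Syn3 on the opposite strand, and 36.7% of its longest transcript is also found in Syn3 transcripts, so its low values are uncertain. Timp2 was thus the only TIMP of the 4 that passed the FPKM minimum in either cell type.

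Slpi, the secretory leukocyte peptidase inhibitor, blocks neutrophil elastase and cathepsin G. It lies at chr2:164179806-164182243. Its FPKM was 3.21, 3.52 and 5.23 in BMDM and it was listed at 0 in all 3 BSM libraries. The BMDM mean was 3.99 ± 1.09 (SD, n = 3), and no fold is given against a group at 0. The fitted log2 fold change, which depends on the pseudocount, was 2.30 (SE 0.29, adjusted p = 0.000491), and it was called in all 6 fits with a library left out. The ALEXA-Seq values were 61.4, 66.6 and 93.6 in BMDM and 0, 0.321 and 0 in BSM, so that the single value above 0 in BSM was in replicate 2. The log2 fold change there was 6.07 (SE 0.47, adjusted p = 0.000134). Unlike Cst7, Slpi was highest in BMDM replicate 3 and not in replicate 2.

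The genes with the pattern most like Slpi over the 6 libraries, by Euclidean distance between log2(FPKM + 1) values, were Dpp4 (distance 0.234), Ms4a4b (0.346) and Diap3 (0.352). Dpp4, a membrane serine peptidase, had FPKM of 3.88, 3.69 and 5.00 in BMDM and at most 0.0399 in BSM. Nearest to Serpine2 were Dst (0.469), Cttnbp2nl (0.634) and Lhfpl2 (1.20). Dst, a large cytoskeletal linker gene, had FPKM of 0.0160, 0.924 and 0.0130 in BMDM and 18.2, 26.1 and 26.7 in BSM, and like Serpine2 it was highest in replicate 2 among the BMDM libraries.

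Added over the 10 members, FPKM came to 41.2, 66.1 and 59.6 in BMDM and 286, 400.5 and 341 in BSM. The groups did not overlap. The means were 55.6 ± 12.9 (SD, n = 3) and 343 ± 57.1 (SD, n = 3), a ratio of 6.16, with p = 0.1 in a two-sided exact permutation test, the smallest p that 3 against 3 libraries can give. As a share of all FPKM in a library, the members held 0.0252%, 0.0340% and 0.0344% in BMDM and 0.414%, 0.534% and 0.4998% in BSM, a ratio of 15.5. Without Cst3 the sums were 8.04, 13.7 and 10.6 FPKM in BMDM and 45.8, 49.2 and 47.7 FPKM in BSM, a ratio of 4.41.

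**Figure D3:**
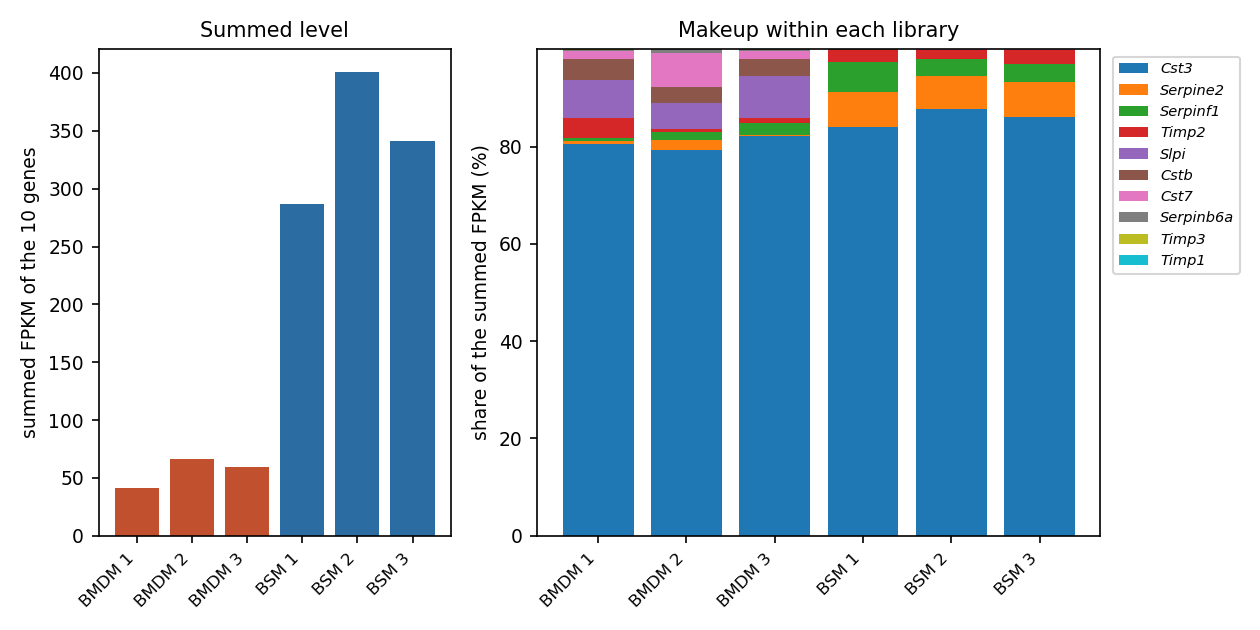
Summed FPKM of the 10 genes in each library (left) and the share of that sum held by each gene in percent (right). The BSM libraries sum to between 286 and 400.5 FPKM against 41.2 to 66.1 in BMDM, and Cst3 makes up between 79.3% and 87.7% in every library while Slpi and Cstb appear beside it in BMDM, with Cst7 (7.09%) widest in BMDM 2 and Timp2 (4.05%) in BMDM 1, and the serpins and Timp2 appear in BSM.

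Cst3 made up 80.5%, 79.3% and 82.2% of the summed FPKM in BMDM and 84.0%, 87.7% and 86.0% in BSM, so the groups did not overlap but lay close together (80.7 ± 1.43 against 85.9 ± 1.87, SD, n = 3; exact permutation p = 0.1). The makeup of the remainder differed more. Serpins held 3.05% ± 1.52 (SD, n = 3) of the BMDM sum and 11.5% ± 1.67 (SD, n = 3) of the BSM sum, chiefly Serpine2 with 7.07% ± 0.332 (SD, n = 3) in BSM. Slpi held 7.80%, 5.33% and 8.77% in BMDM, where it was the most abundant member after Cst3 in replicates 1 and 3 and was exceeded by Cst7 with 7.09% in replicate 2. Cstb held 3.72% ± 0.698 (SD, n = 3) of the BMDM sum and 0.125% ± 0.0400 (SD, n = 3) of the BSM sum. The TIMP share overlapped between the cell types, at 4.16%, 0.615% and 0.898% in BMDM and 2.42%, 1.89% and 2.87% in BSM.

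In order of mean FPKM the members in BSM were Cst3, Serpine2, Serpinf1 and Timp2, and the remaining members were at 0.514 FPKM or less in every library. These 4 did not overlap with their neighbours in that order. In BMDM the order after Cst3 was Slpi, Cstb, Serpinf1, Timp2 and Serpine2, with Cst7 left aside because its mean rested on replicate 2. Slpi was above Cstb in every library, Cstb was above the next 3 genes, and Serpinf1, Timp2 and Serpine2 overlapped with each other. Cst7 was above Slpi in BMDM replicate 2 and below Cstb in replicates 1 and 3, and its range overlapped with those of Slpi, Cstb, Serpinf1, Timp2 and Serpine2.

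Few of the other inhibitor genes reached the expression minimum. Of 60 other serpins on the list, 54 were in the FPKM table and 2 passed, both called higher in BMDM, as were 45.3% of all tested genes. Serpinb1a, an inhibitor of neutrophil elastase, cathepsin G and proteinase 3, was at 2.34, 6.56 and 4.40 FPKM in BMDM and listed at 0 in all 3 BSM libraries (log2 fold change 2.36, SE 0.35, adjusted p = 0.00116). Serpinb10 was at 8.46, 8.86 and 6.87 FPKM in BMDM and listed at 0 in BSM (log2 fold change 3.17, SE 0.24, adjusted p = 3.89e-05). Of the tested serpins, Serpine2 and Serpinf1 were thus called higher in BSM, and Serpinb1a and Serpinb10 higher in BMDM. Each reached the minimum of 3 FPKM only in the cell type where it was higher, so its entry into the test already depended on that difference.

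Of 40 inhibitors of other families, 4 passed the minimum, 2 called higher in BSM and 2 higher in BMDM, beside 9.22% and 45.3% of all tested genes. Spint1, a Kunitz inhibitor of the hepatocyte growth factor activator, was listed at 0 in BMDM and was at 8.61, 10.05 and 7.90 FPKM in BSM (log2 fold change -3.29, adjusted p = 3.12e-05). Cast, or calpastatin, the inhibitor of calpains, was at 14.8, 13.2 and 16.9 FPKM in BMDM and 6.53, 1.04 and 2.01 FPKM in BSM (log2 fold change 2.15, adjusted p = 0.00559), and after scaling to the same sum its adjusted p was 0.154. The other 2 were named after their values were seen. Tfpi, the tissue factor pathway inhibitor, had a log2 fold change of -1.36 (adjusted p = 0.0333) and was called in 1 of the 6 fits with a library left out. Pebp1, a kinase inhibitor protein of the PEBP family, had one of 1.26 (adjusted p = 0.0141), and after quantile normalization its adjusted p was 0.154. Spint1, Tfpi and Pebp1 reached the FPKM minimum only in the cell type where they were higher, whereas Cast reached it in both.

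**Figure D4:**
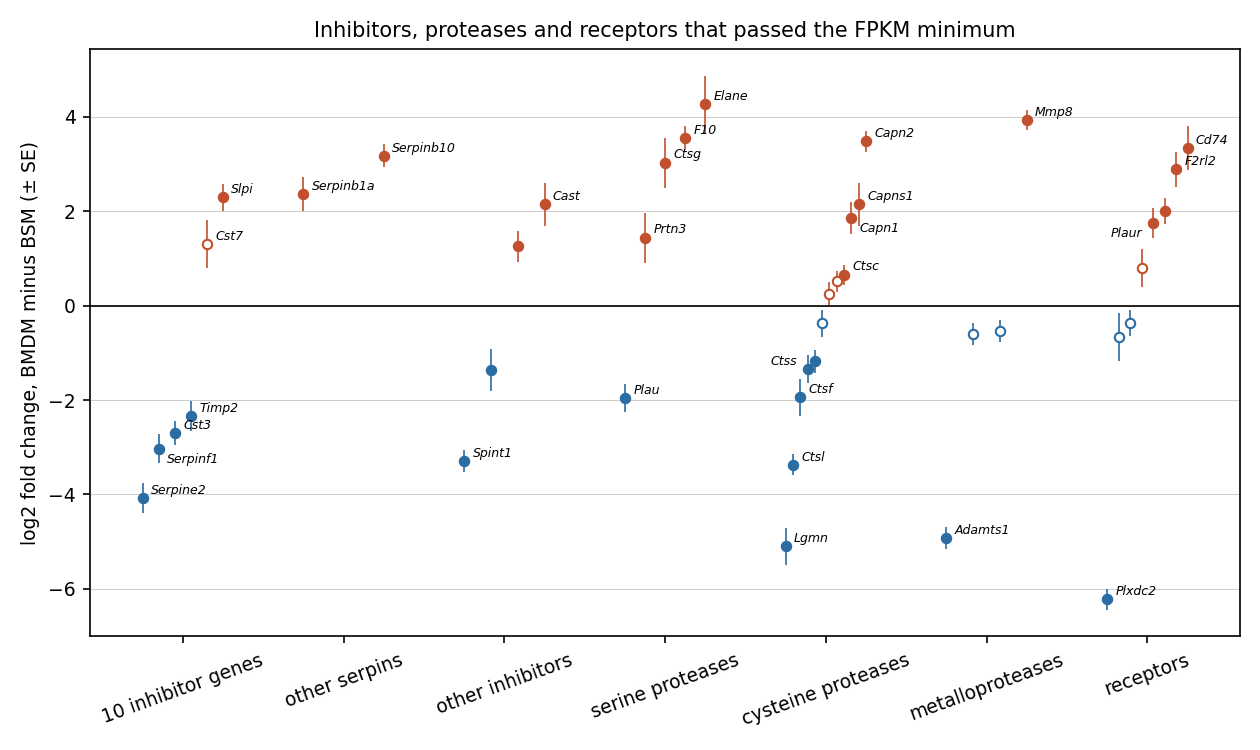
Log2 fold change (BMDM minus BSM, with its standard error) of the genes on each list that passed the minimum of 3 FPKM, with filled points for an adjusted p under 0.05. Of the 21 target proteases 9 were called higher in BMDM and 7 higher in BSM; Elane, Mmp8, F10, Capn2 and Ctsg lie above 3 on the log2 scale and Lgmn and Adamts1 below -4.

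The proteases that these inhibitors act on were called in both directions. Of 85 on the lists, 21 passed the FPKM minimum, with 9 called higher in BMDM, 7 higher in BSM and 5 not called. Quantile normalization gave 10 higher in BSM and 7 higher in BMDM, and equal sums per library gave 13 and 6, so the balance between the directions depended on scaling. Among all tested genes, 45.3% were called higher in BMDM and 9.22% higher in BSM without further scaling.

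Of the 5 serine proteases tested, 4 were called higher in BMDM and 1 higher in BSM, beside 45.3% and 9.22% of all tested genes. Each reached the minimum of 3 FPKM only in the cell type where it was higher. Entry into the test thus already depended on that difference. Elane, neutrophil elastase and a target of Slpi, was at 9.75, 56.0 and 10.7 FPKM in BMDM and listed at 0 in BSM (log2 fold change 4.27, adjusted p = 0.000848). Ctsg, or cathepsin G, was at 2.74, 17.3 and 6.94 FPKM in BMDM and listed at 0 in BSM (log2 fold change 3.03, adjusted p = 0.00233). Prtn3, or proteinase 3, was at 0.424, 5.03 and 1.34 FPKM in BMDM and listed at 0 in BSM (log2 fold change 1.44, adjusted p = 0.0495). All 3 were highest in BMDM replicate 2, all 3 are also on the granulocyte marker list, and Prtn3 was called in 2 of the 6 fits with a library left out. Prtn3 reached the minimum in BMDM replicate 2 only. Prtn3 was not called after quantile normalization (adjusted p = 0.143) or with equal sums per library (adjusted p = 0.0781), which leaves 3 serine proteases higher in BMDM. F10, coagulation factor X, was at 8.53, 12.8 and 11.3 FPKM in BMDM and listed at 0 in BSM (log2 fold change 3.55, adjusted p = 2.82e-05). Plau, or urokinase, a target of Serpine2, was at 2.09, 1.76 and 1.58 FPKM in BMDM and 14.5, 9.50 and 6.89 FPKM in BSM (log2 fold change -1.96, SE 0.29, adjusted p = 0.00117).

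Of the 12 cysteine proteases tested, 5 were called higher in BSM, 4 higher in BMDM and 3 were not called. Over all tested genes, 9.22% were called higher in BSM and 45.3% higher in BMDM. Quantile normalization gave 6 and 3, beside 19.3% and 21.7% of all tested genes. Equal sums per library gave 9 and 2, beside 24.9% and 15.2%. Without further scaling, those higher in BSM were Lgmn, Ctsl, Ctss, Ctsf and Ctso, which are lysosomal enzymes. Ctsf and Ctso reached the FPKM minimum in BSM only. Lgmn, or legumain, which cystatin C also inhibits at a separate site, was at 0.892, 3.48 and 0.777 FPKM in BMDM and 105, 81.6 and 67.4 FPKM in BSM (log2 fold change -5.09, adjusted p = 4.15e-05). Ctsl was at 2.55, 3.43 and 2.63 FPKM in BMDM and 40.7, 41.7 and 34.3 FPKM in BSM (log2 fold change -3.37, adjusted p = 2.4e-05). Ctss, cathepsin S of the antigen processing pathway, was the most abundant at 225, 191 and 264 FPKM in BMDM and 378, 675 and 736 FPKM in BSM (log2 fold change -1.35, adjusted p = 0.00636). In BSM the FPKM of Ctss was above that of Cst3 in every library, as it was in BMDM. Ctsf had a log2 fold change of -1.95 (adjusted p = 0.0046).

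Those higher in BMDM without further scaling were the calpain genes Capn1, Capn2 and Capns1, and Ctsc. The calpain genes encode subunits of cytosolic calcium-dependent proteases whose inhibitor is Cast. Ctsc, or cathepsin C, is the activator of granule serine proteases and the enzyme that Cst7 restrains. Capn1 and Capn2 reached the FPKM minimum in BMDM only. Capn2 was at 14.9, 17.1 and 17.8 FPKM in BMDM and 0.720, 0.533 and 0.455 FPKM in BSM (log2 fold change 3.48, adjusted p = 1.81e-05). Capns1 and Capn1 had log2 fold changes of 2.14 (adjusted p = 0.00611) and 1.86 (adjusted p = 0.00288), and with equal sums per library that of Capns1 was 0.88 and no longer called (adjusted p = 0.182). Ctsc was at 61.3, 57.0 and 67.2 FPKM in BMDM and 34.3, 42.0 and 40.4 FPKM in BSM, and its log2 fold change of 0.66 (adjusted p = 0.0299) turned to -0.13 after quantile normalization and to -0.64 after scaling to the same sum. Ctsb, Ctsh and Ctsz were not called, with log2 fold changes of 0.26, 0.51 and -0.37. With equal sums per library they became -1.05, -0.78 and -1.56 and all 3 were called higher in BSM (adjusted p = 0.0119, 0.0181 and 0.00269), and Ctsz was also called higher in BSM after quantile normalization (adjusted p = 0.00655).

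Of the 4 metalloproteases tested, Mmp8, neutrophil collagenase, was called higher in BMDM at 13.9, 14.7 and 14.5 FPKM against at most 0.00876 in BSM (log2 fold change 3.94, adjusted p = 8.75e-06). It is also on the granulocyte marker list and lay within a narrow range over the BMDM libraries, whereas Elane was highest in BMDM replicate 2. The part of granulocytes in the Mmp8 values was not tested. Adamts1, a secreted protease that cleaves proteoglycans, was listed at 0 in BMDM and was at 27.3, 35.7 and 25.7 FPKM in BSM (log2 fold change -4.92, adjusted p = 4.62e-06). Mmp8 and Adamts1 thus reached the FPKM minimum only in the cell type where they were higher. Adam10 and Adam17, the sheddases, were not called, with log2 fold changes of -0.60 and -0.53, and both were called higher in BSM after quantile normalization.

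Of the 8 receptors and partners tested, 4 were called higher in BMDM, 1 higher in BSM and 3 were not called, shares close to the 45.3% and 9.22% over all tested genes. Each of those called reached the FPKM minimum only in the cell type where it was higher. Plaur, the urokinase receptor, was at 2.04, 4.06 and 2.27 FPKM in BMDM and at most 0.161 in BSM (log2 fold change 1.75, adjusted p = 0.0029), the direction opposite to that of its ligand Plau. F2rl2, the thrombin receptor PAR3, was at 10.1, 3.56 and 8.54 FPKM in BMDM and at most 0.109 in BSM (log2 fold change 2.89, adjusted p = 0.000527). Cd74, the invariant chain of MHC class II, had a log2 fold change of 3.33 (adjusted p = 0.000798). Plxdc2, a reported binding protein of Serpinf1, was at 0.254, 0.0428 and 0.125 FPKM in BMDM and 89.8, 87.2 and 75.0 FPKM in BSM (log2 fold change -6.22, adjusted p = 2.5e-06). Lrp1, the receptor that clears Serpine2 complexes, was not called, at 8.93, 6.03 and 6.76 FPKM in BMDM and 7.004, 12.3 and 9.96 FPKM in BSM. It was called higher in BSM after quantile normalization (log2 fold change -1.13, adjusted p = 0.017) and with equal sums per library (-1.55, adjusted p = 0.00495).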

How the data were processed

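Total RNA of sorted cells was amplified with the Ovation RNA-Seq method and sequenced as paired-end reads. The authors deposited FPKM for each gene from Cufflinks (1.0.3, after TopHat 1.3.1 with Bowtie 0.12.7 and CASAVA 1.7.0, build mm9, per the submitters' processing notes). They also deposited an ALEXA-Seq signal for each gene whose unit and normalization are not given in the sources used here. The study lists mapped reads per library, but neither table gives reads per gene, so the number of reads behind a value is unknown. Starts in the files count from 0 and are printed counted from 1.

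FPKM were compared with limma 3.58.1 in R 4.3.3 with a trend of variance on mean. Values were log2(FPKM + 1) of the 6364 genes reaching an FPKM of 3 in any of the 6 libraries, with Benjamini-Hochberg adjustment over all of them. The top 6364 entries by ALEXA-Seq value had the same test. Sums and shares were compared by exact permutation tests. The replicates are labelled as biological replicates. Simulated data with known changes were used to check the limma step. Python 3.11.15, pandas 2.3.3, numpy 2.4.6, scipy 1.17.1 and matplotlib 3.10.9 were used.

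The members, gene lists and marker lists were chosen with earlier results of these data known. Genes beside the members were named by rule: from each list, in each direction, up to 4 genes of largest change that were called in both tables with the same sign and no overlap, and the 3 genes nearest in pattern to Slpi and to Serpine2. Genes outside the rule were named to complete small counts. A gene that the rule names is counted but not reported here. Gene overlaps, transcript sharing and strands came from GENCODE M21, used as properties of genes, and 9 of 10 members had an entry in the RefSeq promoter table. Alternatives were an FPKM minimum of 1 or none, a pseudocount of 0.1, quantile normalization, scaling to the same sum or upper quartile, no trend, library quality weights, medians, the replicate block, the ALEXA-Seq values and leaving out each library.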

Additional observations from a re-analysis of the deposited data

How the results depend on the processing

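The calls of Serpine2, Serpinf1, Cst3, Timp2 and Slpi kept their direction and side of the threshold under all 17 alternatives of each, and the count of members higher in BSM stayed at 4. The count higher in BMDM, 1 in the comparison reported, was 3 with the ALEXA-Seq values, 2 after their quantile normalization, 3 with an FPKM minimum of 1, 2 with no minimum, 2 with a pseudocount of 0.1, 2 with no trend and 2 with library quality weights, by the calls of Cst7 and Cstb. Leaving out single libraries gave 1 to 2, at 2 without BMDM replicate 1 or 2. These fits kept the genes chosen from all 6 libraries, and Cst7 reached the minimum in BMDM replicate 2 only. In settings chosen after the values were seen it was 3 with the ALEXA-Seq values without a minimum and 2 when these were also quantile normalized.

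Of the other inhibitors, 2 were called higher in BMDM after scaling to the same sum, against 4, and 1 higher in BSM with the ALEXA-Seq values, against 2, with 1 to 2 on leaving out each library (1 without any of BMDM replicates 1, 2 and 3 or BSM replicates 2 and 3, by the loss of Tfpi). Target proteases higher in BSM were 13 after scaling to the same sum, against 7. Receptors higher in BSM were 3 with quantile normalization and 2 with equal FPKM sums, against 1. The BSM to BMDM ratio of the summed FPKM was 15.5 after scaling to the same sum and 11.3 after upper quartile scaling, against 6.16. The difference in the Cst3 share was 11.04 percentage points without Serpine2, against 5.26. Serpine2 was the next most abundant member in BSM (7.07% of the sum) but not in BMDM (0.936%), so its removal bore mostly on the BSM share. The changes in this ratio and this share follow from the scaling or the members removed, and the cause of the other changes was not tested.

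Deviations of same-numbered libraries correlated at -0.0195, -0.00836 and 0.134, and those of differently numbered libraries at between -0.113 and 0.0685. Same-numbered libraries have the same sex by the labels. Whether a number also marks a shared pool or day is not stated, and these correlations cannot decide it. With the replicate block the members called were still 4 higher in BSM and 1 higher in BMDM. Serpinb6a and Timp3, tested with no FPKM minimum, were not called (limma adjusted p = 0.405 and 0.533).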
